A study of Homo sapiens with 6 samples.

Results

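The 10 genes of epithelial adhesion and of epithelial-mesenchymal transition (EMT) described here are CDH1, EPCAM, CTNND1, CD44, VIM, ZEB1, SNAI1, SNAI2, CTNNA1 and JUP. They were taken by name, by matching gene identifiers to GENCODE release 29, and all 10 were found among the 58780 human genes in the tables. All 10 also passed the filter on low counts, which 19725 genes passed in all. RNA was sequenced from HCT116, an established human colorectal carcinoma line, after 16 h of auxin or with DMSO as control, in 3 libraries each. Auxin, a plant hormone, is used in engineered cells to deplete a degron-tagged protein. No tagged protein and no allele is named in the labels, which give the treatment in the genotype field. The labels number the libraries as biological replicates 1 to 3 in each group and do not say whether they are separate clones or cultures. The p-values therefore measure the spread between these libraries.

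Cells of an epithelium are held together by adherens junctions, in which E-cadherin (CDH1) binds E-cadherin on the neighbouring cell. Inside the cell, p120-catenin (CTNND1) keeps cadherin at the surface, beta-catenin or plakoglobin (JUP) binds its tail, and alpha-catenin (CTNNA1) links the complex to actin. In EMT, the repressors SNAI1, SNAI2 and ZEB1 bind the CDH1 promoter, and cells lose E-cadherin and gain the intermediate filament protein vimentin (VIM). EPCAM is a surface glycoprotein of simple epithelia. CD44 is the receptor for hyaluronan, and its variable exons, like the alternative starts and exons of CTNND1, differ in use between epithelial and mesenchymal cells.

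The labelled cell type was checked against markers given as TPM (abundance per transcript length, scaled to the same total in every library). Of 14 colorectal epithelial markers, 7 were at or above 1 TPM in all 6 libraries, among them KRT8, KRT18 and KRT19. VIL1, CDX1, CDH17, LGALS4, GPA33 and CEACAM5 were under 0.1 TPM in every library, so these differentiation markers were at very low levels. None of 8 fibroblast, 5 endothelial and 6 blood cell markers reached 1 TPM in all libraries. The fibroblast markers summed to between 1.32 and 2.80 TPM in DMSO and between 0.64 and 1.51 TPM in auxin. The replicate 1 libraries stood apart, with 546128000 and 625895000 counts against 234038000 to 284300000 in the other 4.

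The sequences below carry the isoform results for CTNND1 and CD44; they are from GENCODE 29 transcripts on GRCh38, plus strand of chromosome 11, written 5′ to 3′. The first CTNND1 stretch (chr11:57791479-57791673) holds the annotated start codons 1 and 55, and the second (chr11:57795577-57795729) holds the start at codon 102, each start in capitals. Exons C (chr11:57806461-57806478) and B (chr11:57815915-57816001) are short alternative coding exons of CTNND1.

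CTNND1 first coding stretch: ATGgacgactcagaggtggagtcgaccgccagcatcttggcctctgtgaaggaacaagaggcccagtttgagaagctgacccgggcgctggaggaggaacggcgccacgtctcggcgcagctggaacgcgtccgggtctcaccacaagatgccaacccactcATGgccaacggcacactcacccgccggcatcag
CTNND1 stretch with the codon 102 start: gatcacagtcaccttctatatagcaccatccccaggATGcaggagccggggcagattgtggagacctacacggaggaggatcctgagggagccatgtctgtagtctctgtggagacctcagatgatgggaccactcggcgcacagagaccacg
CTNND1 exon C: atgagtggttctccagag
CTNND1 exon B: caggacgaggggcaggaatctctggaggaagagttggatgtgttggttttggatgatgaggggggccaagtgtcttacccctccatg

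Of CD44, the 3 variable exons used most are shown, v8 (chr11:35208105-35208206), v9 (chr11:35209965-35210054) and v10 (chr11:35211246-35211449), with v5 (chr11:35201668-35201787), whose first 3 bases in capitals belong only to the form with the other start.

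CD44 v5: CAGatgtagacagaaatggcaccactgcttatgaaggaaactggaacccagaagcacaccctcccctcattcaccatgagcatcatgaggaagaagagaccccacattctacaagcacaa
CD44 v8: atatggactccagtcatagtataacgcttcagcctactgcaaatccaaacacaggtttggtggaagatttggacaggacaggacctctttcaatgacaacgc
CD44 v9: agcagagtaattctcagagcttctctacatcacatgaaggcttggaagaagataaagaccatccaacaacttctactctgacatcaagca
CD44 v10: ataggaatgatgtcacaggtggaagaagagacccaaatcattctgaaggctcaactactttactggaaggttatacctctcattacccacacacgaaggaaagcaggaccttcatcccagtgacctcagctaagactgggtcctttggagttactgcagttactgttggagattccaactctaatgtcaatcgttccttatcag

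In DMSO, CD44 was the most abundant of the 10 genes per length, at 1156 ± 223 TPM (SD, n = 3 for this and all following means). EPCAM followed at 243.0 ± 39.2 TPM, then CTNNA1 at 165.4 ± 16.4, JUP at 111.5 ± 45.3, CTNND1 at 76.6 ± 10.3 and CDH1 at 39.6 ± 5.1 TPM. The EMT factors and vimentin lay far below these adhesion genes. SNAI1 was at 6.30 ± 1.91 TPM, ZEB1 at 2.01 ± 0.44, VIM at 1.28 ± 0.23 and SNAI2 at 0.310 ± 0.060 TPM. The DMSO ranges of CTNNA1 and JUP overlapped, as did those of JUP and CTNND1, and after auxin those of JUP and CTNND1 did; all other neighbours in this order were separate in both groups.

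After auxin, 7 of the 10 genes rose, 1 fell and 2 were not called. The genes that rose came from both sides of the EMT programme, since they were CDH1, EPCAM and CTNNA1 on the epithelial side and SNAI1, SNAI2, ZEB1 and VIM on the mesenchymal side. JUP fell, though with offsets corrected for GC content its sign turned, as did that of CTNND1. These calls are from edgeR's quasi-likelihood test in a fit without pairing, at an adjusted p under 0.05, with Benjamini-Hochberg adjustment over all genes tested. The test called 25.4% of all tested genes higher and 26.9% lower, 52.3% in either direction (5010 higher and 5311 lower, or 6534 higher and 4416 lower with upper-quartile factors, and 970 and 2966 with limma on log2(TPM + 1)). With the replicate number as a block, 9 of the 10 rose and 1 fell, where that fit called 35.5% of all genes higher and 34.4% lower, 69.9% in either direction. With GC-corrected offsets and no block, CDH1, EPCAM and CTNNA1 kept a positive sign but were not called. With GC-corrected offsets and the block together they were called, CD44 (log2 fold change 0.02, edgeR adjusted p 0.67) and CTNND1 (-0.06, 0.17) were not, and JUP was called higher. On log2(TPM + 1) with limma, SNAI2 alone of the 10 was called. In 8 of the 10 genes the CPM (counts per library total after TMM scaling) of the groups did not overlap, against 60.3% of all tested genes. In bulk RNA, a change in the number of cells that express a gene and a change in RNA per cell cannot be told apart.

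**Figure D1:**
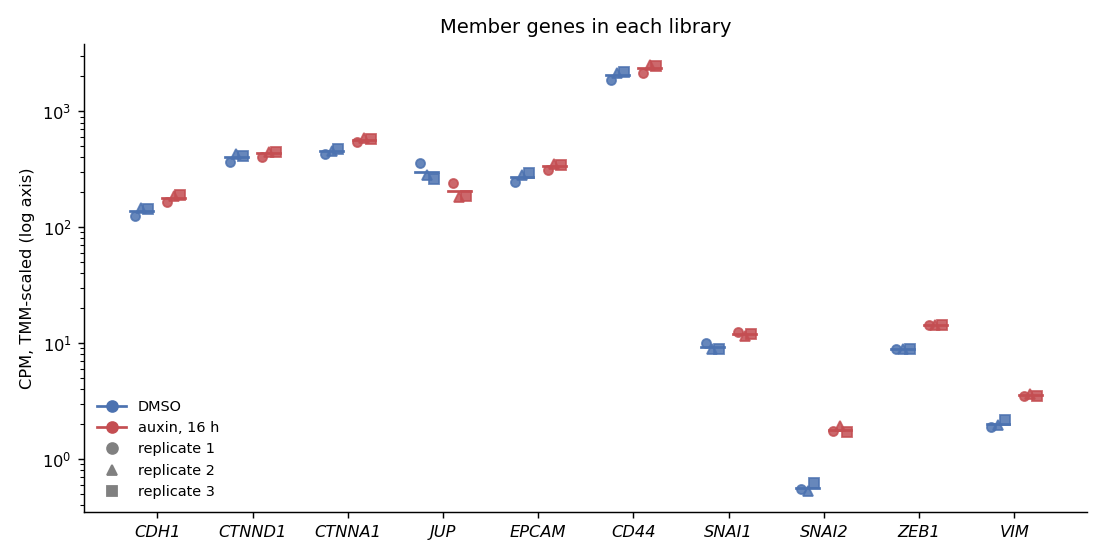
TMM-scaled CPM of each of the 10 genes in each library, on a log axis; marker shapes are replicates, colours are groups and short lines are group means. SNAI2, ZEB1 and VIM show the widest gaps between groups, the JUP auxin libraries lie below the DMSO libraries, and the groups overlap for CTNND1 and CD44.

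E-cadherin RNA was higher after auxin. CDH1 (ENSG00000039068.18, chromosome 16, 68737225 to 68835548) was at 126, 145 and 144 CPM in DMSO replicates 1 to 3 and at 164, 187 and 188 CPM in auxin. Each auxin library was above each DMSO library in CPM. In TPM the groups overlapped (45.5 in DMSO replicate 1 against 43.7 in auxin replicate 2). The log2 fold change was 0.38 ± 0.08 (SE; adjusted p 0.0079, edgeR), a 1.30-fold rise. The 1552 other tested genes within 1 percentage point of its GC content (the share of G and C bases) had a median of 0.18. CTNNA1, the actin-linking alpha-catenin (ENSG00000044115.20, chromosome 5, 138610967 to 138935034), was at 431, 452 and 471 CPM in DMSO and at 545, 585 and 572 CPM in auxin. The groups were again separate in CPM but not in TPM, and the log2 fold change was 0.33 ± 0.06 (SE; adjusted p 0.0044, edgeR). The 1582 other tested genes of like GC content had a median of 0.20.

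CTNND1, encoding p120-catenin (ENSG00000198561.13, chromosome 11, 57753243 to 57819546), was at 361, 424 and 413 CPM in DMSO and at 400, 449 and 448 CPM in auxin. The lowest auxin library lay below the 2 higher DMSO libraries. The log2 fold change was 0.11 (SE 0.09, 95% interval -0.09 to 0.32, edgeR adjusted p 0.298). With the replicate number as a block it was 0.12 and passed the threshold (edgeR adjusted p 0.0081); each auxin library was above the DMSO library of its number. Offsets corrected for GC content, the share of G and C bases, turned its sign, to -0.06.

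JUP encodes plakoglobin, an armadillo protein found in both adherens junctions and desmosomes (ENSG00000173801.16, chromosome 17, minus strand, 41754604 to 41786931). It was at 357, 281 and 261 CPM in DMSO and at 242, 183 and 186 CPM in auxin. In CPM all auxin libraries were below all DMSO libraries, but in TPM the groups overlapped. Replicate 1 was the highest library in both groups. JUP fell by 0.56 on the log2 scale (SE 0.15; adjusted p 0.018, edgeR), but with offsets corrected for GC content the sign turned, to 0.16 (edgeR adjusted p 0.060, and 0.0028 with the replicate block added). The call was also lost without auxin replicate 2 (edgeR adjusted p 0.066) or auxin replicate 3 (0.069). JUP has a GC content of 61.9%, and the 892 other tested genes within 1 percentage point of it had a median log2 fold change of -0.70. The direction of JUP thus differed between the 2 scalings.

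EPCAM (ENSG00000119888.10, chromosome 2, 47345158 to 47387601) was at 247, 282 and 292 CPM in DMSO and at 312, 349 and 343 CPM in auxin. The groups did not overlap in CPM but did in TPM. EPCAM rose 1.22-fold, that is 0.29 ± 0.08 on the log2 scale (SE; adjusted p 0.023, edgeR). The median of the 1805 other tested genes within 1 percentage point of its GC content was 0.17. The EPCAM call was lost when DMSO replicate 1 or 2 or auxin replicate 2 or 3 was left out (edgeR adjusted p 0.064 to 0.084).

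CD44 (ENSG00000026508.18, chromosome 11, 35138870 to 35232402) was at 1870, 2157 and 2162 CPM in DMSO and at 2136, 2496 and 2471 CPM in auxin. The auxin replicate 1 library was below 2 DMSO libraries, so the groups overlapped. The log2 fold change was 0.20 (SE 0.10, 95% interval -0.03 to 0.42, edgeR adjusted p 0.122), which was not called. It was called at the same size with the replicate block (edgeR adjusted p 0.00025), without both replicate 1 libraries (0.0040) and without auxin replicate 1 alone (0.041, log2 fold change 0.27). With GC-corrected offsets the log2 fold change was 0.02, and it was not called without the block (edgeR adjusted p 0.87) or with it (0.67). The 1639 other tested genes within 1 percentage point of its GC content had a median log2 fold change of 0.20 as well.

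Of the EMT repressors, SNAI2 had the largest fold change of the 10 genes and the lowest level. SNAI2 (Slug; ENSG00000019549.11, chromosome 8, minus strand, 48917604 to 48921740) was at 0.551, 0.532 and 0.615 CPM in DMSO and at 1.75, 1.91 and 1.69 CPM in auxin. Those values rest on 150 to 1133 counts per library. The 3 auxin libraries were all well above DMSO, a 3.15-fold rise (log2 fold change 1.66, SE 0.13, edgeR adjusted p 6.0e-05). Under all 18 alternatives run, SNAI2 stayed called, with log2 fold changes from 0.51 to 1.78 and adjusted p up to 0.0073; the lowest fold was on log2(TPM + 1), which shrinks low genes.

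ZEB1, a zinc-finger repressor of CDH1 (ENSG00000148516.21, chromosome 10, 31318495 to 31529814), was at 8.83, 8.86 and 8.87 CPM in DMSO and at 14.4, 14.2 and 14.3 CPM in auxin. The spread within each group was small beside the gap between them. ZEB1 rose 1.62-fold (log2 fold change 0.69, SE 0.07, edgeR adjusted p 0.00014). SNAI1 (Snail; ENSG00000124216.3, chromosome 20, 49982999 to 49988886) was at 10.1, 8.92 and 8.82 CPM in DMSO and at 12.5, 11.6 and 11.98 CPM in auxin. It rose 1.30-fold (log2 fold change 0.37, SE 0.09, edgeR adjusted p 0.0085), and the call was lost without DMSO replicate 2 (edgeR adjusted p 0.051) or DMSO replicate 3 (0.052). With a GC content of 58.2%, SNAI1 rose where the 1213 other tested genes within 1 percentage point of it had a median of -0.43.

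VIM, the intermediate filament gene most used as a mesenchymal marker (ENSG00000026025.15, chromosome 10, 17228259 to 17237593), was at 1.89, 1.98 and 2.15 CPM in DMSO and at 3.49, 3.64 and 3.47 CPM in auxin. The groups were separate, and VIM rose 1.76-fold (log2 fold change 0.82, SE 0.10, edgeR adjusted p 0.00056). Per length it was still low after auxin, at 2.03 ± 0.21 TPM against 45.3 ± 1.4 TPM for CDH1 and 1208 ± 115 TPM for CD44. Of the 8 fibroblast markers, 6 were under 0.1 TPM in every library, DCN and LUM among them. COL1A1 was at 2.61, 1.54 and 1.28 TPM in DMSO and at 1.34, 0.54 and 0.56 TPM in auxin. It was not called (edgeR adjusted p 0.070, and 0.00011 with the replicate block). PDGFRB, at or under 0.16 TPM in every library, was called higher.

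**Figure D2:**
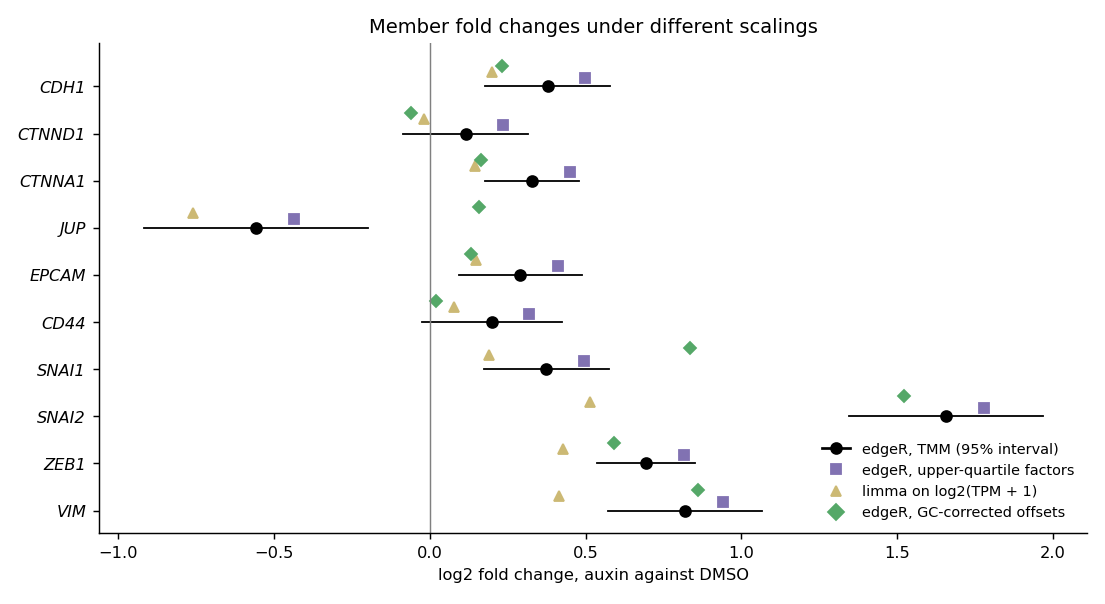
Log2 fold change of each gene, auxin against DMSO, from edgeR with TMM factors (black, with the 95% interval) and under 3 other scalings (coloured markers). SNAI2, ZEB1, VIM, SNAI1, CDH1, CTNNA1 and EPCAM are above 0 in all 4, JUP is at 0.16 only with GC-corrected offsets, and CTNND1 is below 0 with those offsets and on log2(TPM + 1).

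The scale itself mattered for the smaller changes. On log2(TPM + 1) with limma, SNAI2 alone of the 10 was called (log2 fold change 0.51), and the adjusted p of the others was between 0.086 for VIM and 0.94 for CTNND1; of the genes around them, 0 adherens junction and desmosome genes, 0 EMT factors and 0 epithelial factors were called higher on that scale. Upper-quartile factors moved the median of all genes by 0.12 and called CD44 (edgeR adjusted p 0.0088) and CTNND1 (0.022) but not JUP (0.065). With GC-corrected offsets CDH1 (edgeR adjusted p 0.064), CTNNA1 (0.074) and EPCAM (0.145) kept a positive sign but were not called, and with the replicate block added all 3 were called.

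Genes that overlap a member could take or give reads if counting ignored strand, which is not given in the sources used here. ZEB1-AS1, which starts beside ZEB1 on the opposite strand and shares 1953 bases with it, fell while ZEB1 rose. It was at 2.94, 3.32 and 2.80 CPM in DMSO and at 2.57, 1.85 and 1.90 CPM in auxin (log2 fold change -0.51, SE 0.16, edgeR adjusted p 0.031), a call lost without DMSO replicate 2, auxin replicate 2 or auxin replicate 3 (edgeR adjusted p 0.085 to 0.105) and with upper-quartile factors (0.104). ZEB1-AS1 reached up to 37.5% of the ZEB1 count in a library. VIM-AS1, which shares 1727 bases with VIM on the opposite strand, rose with it, from 0.140 ± 0.018 to 0.242 ± 0.034 CPM (log2 fold change 0.80, edgeR adjusted p 0.017). VIM-AS1 reached at most 8.08% of the VIM count. No gene overlapping another member reached 0.1% of that member's count.

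The other genes of adherens junctions and desmosomes, 27 listed and 25 tested, moved in both directions, with 10 higher, 7 lower and 8 not called. Their median log2 fold change was 0.17, against 0.02 over all genes tested. Of all genes tested, 25.4% were called higher and 26.9% lower. With the replicate block both list counts were larger, where 35.5% of all genes were higher and 34.4% lower. Desmosome components split. DSP (desmoplakin) rose from 608.0 ± 17.4 to 893.6 ± 27.3 CPM (log2 fold change 0.56), DSC3 (desmocollin) from 71.03 ± 0.12 to 114.9 ± 3.1 CPM (0.69), and PERP, a desmosomal membrane protein, from 404.6 ± 25.8 to 616.5 ± 44.8 CPM (0.61). In contrast, PKP3 (plakophilin 3) fell from 21.3 ± 1.9 to 1.23 ± 0.27 CPM, and its log2 fold change was -4.10 ± 0.18 (SE; adjusted p 4.9e-06, edgeR). PPL (periplakin) fell from 40.9 ± 3.7 to 7.58 ± 0.50 CPM (log2 fold change -2.43). ARVCF, a catenin of the p120 family, fell from 4.52 ± 0.86 to 1.22 ± 0.42 CPM (-1.88). CTNNB1, which competes with JUP for the cadherin tail, rose from 357.9 ± 29.3 to 458.1 ± 31.6 CPM (0.36, edgeR adjusted p 0.011; 0.18 and not called with GC-corrected offsets, adjusted p 0.112). CDH2 (N-cadherin), the cadherin gained in the classical EMT switch, stayed at or under 0.0882 CPM in every library and was not called (edgeR adjusted p 0.085, and 0.033 with the replicate block).

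Among 24 partners, shedding proteases and ligands of EPCAM, CDH1 and CD44, all tested, 10 were higher, 7 lower and 7 not called, with a median of 0.12. The shares over all genes tested were 25.4% higher and 26.9% lower. Both list counts were larger with the replicate block, where 35.5% of all genes were higher and 34.4% lower. CLDN7 (claudin 7), which binds EPCAM, was at 95.2, 116 and 111 CPM in DMSO and at 8.51, 8.64 and 8.95 CPM in auxin. Its log2 fold change was -3.62 ± 0.09 (SE; adjusted p 1.5e-06, edgeR), while EPCAM itself was 1.22-fold higher. MMP14, a membrane metalloprotease that cleaves CD44, fell from 9.27 ± 0.53 to 1.70 ± 0.25 CPM (log2 fold change -2.44). CD151, a tetraspanin, fell from 74.1 ± 3.3 to 19.8 ± 1.4 CPM (-1.90). Genes on the higher side included PSEN2, a gamma-secretase subunit, at 11.8 ± 0.6 and 24.1 ± 0.7 CPM (1.04), and the hyaluronidase genes HYAL2 (0.46) and HYAL3 (0.47, edgeR adjusted p 0.043). The HYAL3 call was lost without DMSO replicate 2 or 3 or auxin replicate 1 or 3 (edgeR adjusted p 0.093 to 0.133), and its log2 fold change was 1.06 and called with GC-corrected offsets.

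The other EMT transcription factors and their partners numbered 22, of which 17 were tested, 3 rose, 5 fell and 9 were not called (median 0.02). Over all genes tested 25.4% rose and 26.9% fell. With the replicate block 5 rose, where 35.5% of all genes did. The number that fell was larger with the block as well, where 34.4% of all genes fell. ZEB2, the paralogue of ZEB1, was at 0.0225 ± 0.0124 CPM in DMSO and 0.0533 ± 0.0201 CPM in auxin and was not called (edgeR adjusted p 0.057). TCF3, whose E proteins bind E-boxes of CDH1, fell from 66.8 ± 7.9 to 27.7 ± 3.4 CPM (log2 fold change -1.27). Among corepressors of ZEB1 and SNAI1, KDM1A rose (0.50), CTBP2 rose (0.45) and HDAC1 fell (-0.51), and CTBP1 fell by 0.58 on the log2 scale with TMM factors but was at 0.05 and not called with GC-corrected offsets. TCF12 also rose (0.25), but was at 0.09 and not called with GC-corrected offsets (edgeR adjusted p 0.147).

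Epithelial transcription factors, 18 listed and 16 tested, had 3 higher, 7 lower and 6 not called, with a median of 0.04. Among all genes tested 25.4% were higher and 26.9% lower. The replicate block called 5 of the list higher, and 35.5% of all genes. It called the same 7 lower, and 34.4% of all genes. The grainyhead factors GRHL2, an activator of CDH1, and GRHL3 fell, GRHL2 from 29 ± 1.7 to 18.1 ± 1.7 CPM (log2 fold change -0.68) and GRHL3 from 2.39 ± 0.14 to 1.02 ± 0.05 CPM (-1.22). TFCP2L1 fell from 60.7 ± 0.7 to 34.0 ± 0.6 CPM (-0.83). The intestinal factors KLF5 (0.46) and CDX2 (0.56) rose.

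Mesenchymal matrix and cytoskeleton genes, 22 listed and 15 tested, had 4 higher, 4 lower and 7 not called, with a median of 0.38. Over all genes tested 25.4% were higher and 26.9% lower. With the replicate block 9 were higher, where 35.5% of all genes were. The 4 lower genes stayed called with it and COL1A1 joined them, where 34.4% of all genes were lower. NT5E, the surface ecto-nucleotidase CD73, was at 474, 581 and 559 CPM in DMSO and at 1714, 2157 and 2097 CPM in auxin, which is 1.89 ± 0.12 on the log2 scale (SE; adjusted p 2.4e-05, edgeR). The smooth muscle actin gene ACTA2 rose from 6.39 ± 0.77 to 13.6 ± 1.6 CPM (1.09). LOXL2, a collagen crosslinking enzyme, fell from 35.5 ± 8.7 to 10.9 ± 0.4 CPM (-1.70), and the cytoskeletal genes NES (nestin, -1.29) and PLEC (plectin, -1.10, not called with GC-corrected offsets) fell as well.

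**Figure D3:**
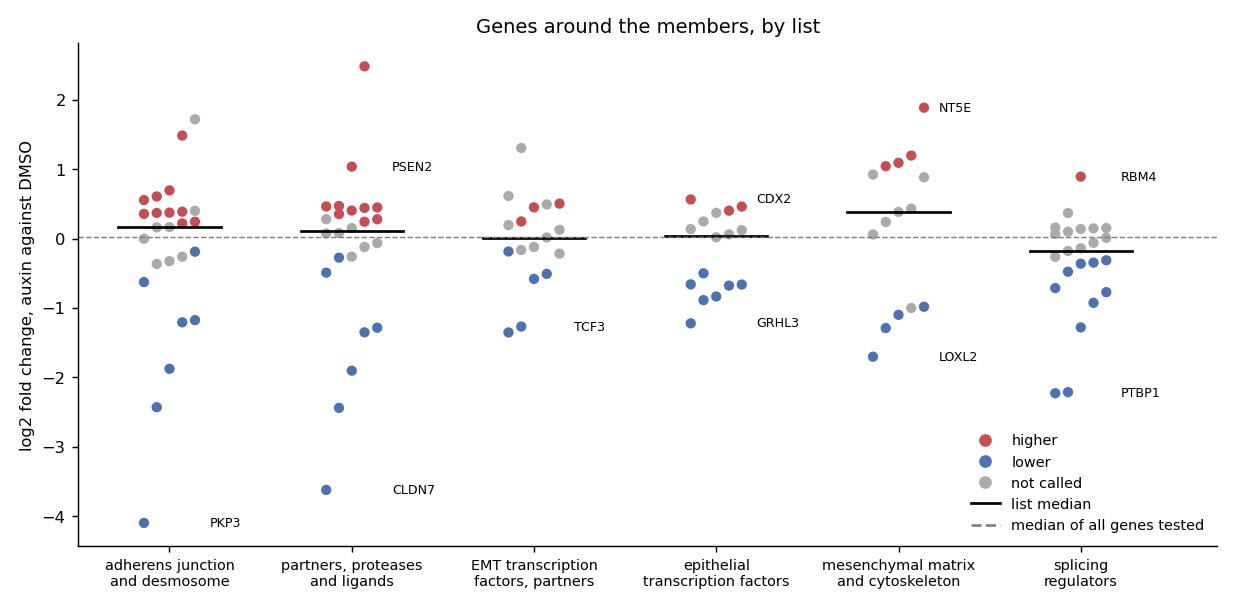
Log2 fold change of each tested gene in the 6 lists around the 10 genes; red is higher, blue lower and grey not called at an edgeR adjusted p under 0.05, black lines are list medians and the dashed line is the median of all genes tested, 0.02. PKP3 and CLDN7 are the lowest points, and only RBM4 of the splicing regulators is red.

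Splicing regulators described as acting on CD44 or CTNND1 were mostly lower or not called. Of 23, 1 rose, 10 fell and 12 were not called, with a median of -0.18. Over all genes tested 25.4% rose and 26.9% fell. The replicate block called 7 of the list higher, and 35.5% of all genes. All 10 lower genes stayed called with it and further list genes joined them, where 34.4% of all genes were lower. ESRP1, which promotes epithelial exon choice in both CD44 and CTNND1, was at 209, 246 and 237 CPM in DMSO and at 126, 148 and 132 CPM in auxin. ESRP1 fell by 0.77 on the log2 scale (SE 0.09; adjusted p 0.00034, edgeR). Its paralogue ESRP2 fell from 23.1 ± 0.7 to 4.97 ± 1.52 CPM (log2 fold change -2.21). PTBP1, a repressor of exons, fell from 386.2 ± 28.7 to 82.3 ± 8.5 CPM (-2.23) and U2AF2, which recognises the polypyrimidine tract, from 214.3 ± 11.8 to 88.2 ± 10.7 CPM (-1.28). RBM4 rose from 51.2 ± 0.8 to 95.1 ± 2.4 CPM (0.89).

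Transcript use was compared as the share of a gene's counts that a transcript takes. Of 193 annotated transcripts of the 10 genes, 32 had enough counts and an intermediate share, and 2 were called, both of JUP. Over all 42849 transcripts tested with limma, 13.2% were called, 7.21% higher and 6% lower, and 17.5% with the replicate block, 9.49% higher. No CD44 or CTNND1 transcript was called among 7 tested of each, and the lowest limma adjusted p was 0.205 in CD44 and 0.412 in CTNND1.

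CD44 RNA was mostly of forms with variable exons. Among transcripts with the complete coding region, those with at least 1 variable exon beyond the standard form CD44-201 made up 83.6, 87.6 and 88.9% of TPM in DMSO and 84.3, 87.6 and 88.9% in auxin. The values of the groups are nearly the same, replicate by replicate, and the means were 86.7 ± 2.7% and 86.9 ± 2.4% (two-sided exact permutation p 0.9). With 3 libraries a group, the smallest p this test can give is 0.1. The transcripts with the complete coding region held 39.9 to 50.7% of CD44 TPM in DMSO and 38.7 to 45.4% in auxin; much of the rest was assigned to incomplete models such as CD44-218 (20.1 ± 4.4% and 20.6 ± 1.7%) and CD44-236 (10.1 ± 2.4% and 10.6 ± 2.5%). Retained-intron models of CD44 took 11.6, 12.3 and 12.7% of TPM in DMSO and 14.7, 15.4 and 15.3% in auxin, without overlap between groups. This sum was not tested. The largest of these models, CD44-238, took 6.83 ± 0.57% and 7.70 ± 0.46%. It alone of them was tested for share and was not called (limma adjusted p 0.248, and 0.106 with the replicate block).

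Exon by exon, the 3′ variable exons dominated in both groups. Inclusion was rebuilt from transcript TPM as the share of transcripts that contain the exon among those that contain or skip it. Exon v8 was included at 88.8, 90.6 and 90.9% in DMSO and at 89.4, 90.3 and 91.6% in auxin. Exons v9 (86.8 to 91.5% over the 6 libraries) and v10 (81.8 to 87.4%) were close to it. Exons v3 to v7 were at intermediate use, v3 at 52.5 ± 3.7% in DMSO and 55.6 ± 4.2% in auxin and v6 at 47.4 ± 2.9% and 50.7 ± 2.1%. Exon v2 was lowest of the main forms, at 16.6 ± 0.7% and 18.1 ± 0.7%, without overlap between groups. Since several of these exons lie on the same transcripts, they are not independent.

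None of the 12 CD44 exons tested was called, against 18.9% of the 17775 exons tested over all genes, or 24.4% with the replicate block. The changes in log2 odds of inclusion after auxin were above 0 in all 11 rows for variable exons. Their 95% intervals lay between -0.56 and 0.64. The form of v5 with the other start came nearest, at 14.7, 14.3 and 16.5% in DMSO and 17.04, 19.03 and 18.54% in auxin (log2 odds change 0.32, SE 0.13, limma adjusted p 0.162). No CD44 exon was called with the replicate block either. The transcript CD44-209 went from 12.5 ± 3.4% to 8.75 ± 2.22% of CD44 TPM. Its share was not called in the main fit (limma adjusted p 0.30) but was with the replicate block (0.010). It was also called in a fit with libraries left out (limma adjusted p 0.022, and up to 0.57 in the other such fits).

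**Figure D4:**
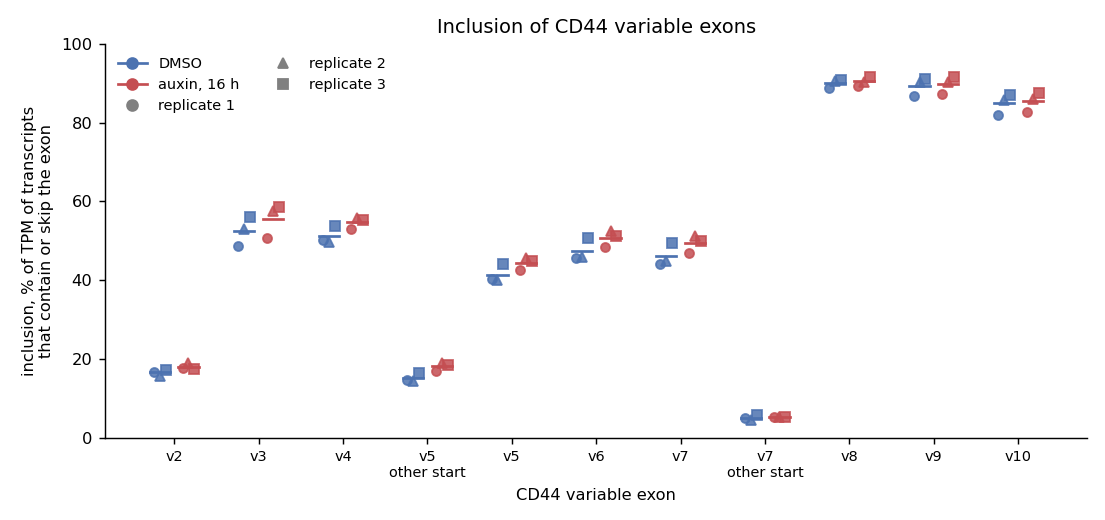
Inclusion of CD44 variable exons v2 to v10 in each library, as percent of the TPM of transcripts that contain or skip the exon; shapes are replicates, colours groups and short lines means. Exons v8, v9 and v10 lie between 81.8% and 91.6% in all 6 libraries, and the groups lie close together at every exon. The groups do not overlap at v2 or at v5 with the other start.

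CTNND1 transcripts were classed by their annotated coding start. The codon 1 start gives the long p120 isoform of mesenchymal cells, and later starts give the shorter isoforms usual in epithelia. Transcripts starting at codon 102 were the largest class, with 61.4, 61.8 and 63.9% of CTNND1 TPM in DMSO and 58.7, 59.9 and 56.3% in auxin. The groups did not overlap (two-sided exact permutation p 0.1, the smallest possible). Transcripts starting at codon 1 held 7.22, 4.86 and 5.06% in DMSO and 9.19, 6.97 and 7.44% in auxin (exact permutation p 0.2). Auxin libraries 2 and 3 were thus level with or close to DMSO replicate 1, while the change was 1.97 percentage points within replicate 1 and 2.24 over replicates 2 and 3. The codon 55 class was small, at 0.811 ± 0.098% in DMSO and 1.48 ± 0.62% in auxin, without overlap (exact permutation p 0.1). Auxin replicate 3 was at 2.19% and the other auxin libraries at 1.13 and 1.11%, and without it the difference fell from 0.66 to 0.31 percentage points. The codon 324 class was at 28.6 ± 1.6% and 28.6 ± 3.0%.

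Of 8 CTNND1 exons tested 1 was called, higher after auxin, where 6.44% of all exons tested were called higher, or 9.24% with the replicate block. The exon at chr11:57791492-57791673 begins after the codon 1 start and holds the codon 55 start, so that transcripts with it lack the first coding stretch's own start. Its inclusion was 1.03, 1.16 and 1.06% in DMSO and 3.72, 2.91 and 2.81% in auxin, which are separate groups (log2 odds change 1.45, SE 0.15, limma adjusted p 0.0019). It rests on 2 transcripts of low abundance, CTNND1-224 at 0.257 ± 0.070 and 1.11 ± 0.70 TPM and CTNND1-237 at 0.503 ± 0.110 and 1.02 ± 0.40 TPM. CTNND1-224 is an incomplete model, at 1.80, 1.14 and 0.40 TPM in auxin replicates 1 to 3. CTNND1-237 held 0.652 ± 0.053% of CTNND1 TPM in DMSO and 1.36 ± 0.56% in auxin. The whole codon 55 class held 0.811% and 1.48%, so this exon and that class are not independent results. Of the longer form of that exon, chr11:57791385-57791673, which holds both starts, inclusion was 5.92 ± 1.40% in DMSO and 8.31 ± 1.34% in auxin (limma adjusted p 0.179, and 0.022 with the replicate block). Exon B was included at 4.53, 4.06 and 4.44% in DMSO and 5.38, 5.43 and 5.70% in auxin, and exon C at 4.16, 3.76 and 4.18% and then 4.82, 4.66 and 4.60%. Neither pair of groups overlapped, but neither exon was called (limma adjusted p 0.10 and 0.27). How often groups were separate was taken only for gene CPM (60.3% of tested genes), not for exons or transcript classes.

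JUP was the member with called transcript shares. JUP-201 and JUP-203 differ only in the last intron, at chr17:41755433-41755729, which lies after the stop codon in the 3′ untranslated region and is spliced in JUP-201 and retained in JUP-203. The coding sequence of both is the same. JUP-201 was at 61.2, 37.9 and 35.0 TPM in DMSO and at 17.24, 13.01 and 12.72 TPM in auxin. JUP-203 was at 74.7, 36.0 and 35.9 TPM in DMSO and at 57.2, 31.0 and 34.7 TPM in auxin. The spliced form was lower in every auxin library, while the ranges of the retained form overlapped.

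As a share of JUP counts, JUP-201 fell (log2 odds change -1.36, SE 0.17, limma adjusted p 0.0052) and JUP-203 rose (1.34, SE 0.15, limma adjusted p 0.0037). The intron was retained in 54.9, 48.7 and 50.6% of TPM over it in DMSO and in 76.8, 70.4 and 73.1% in auxin. The groups were far apart, with a difference of 22.1 percentage points that was 21.9 within replicate 1 and 22.1 over replicates 2 and 3 (two-sided exact permutation p 0.1, the smallest possible).

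**Figure D5:**
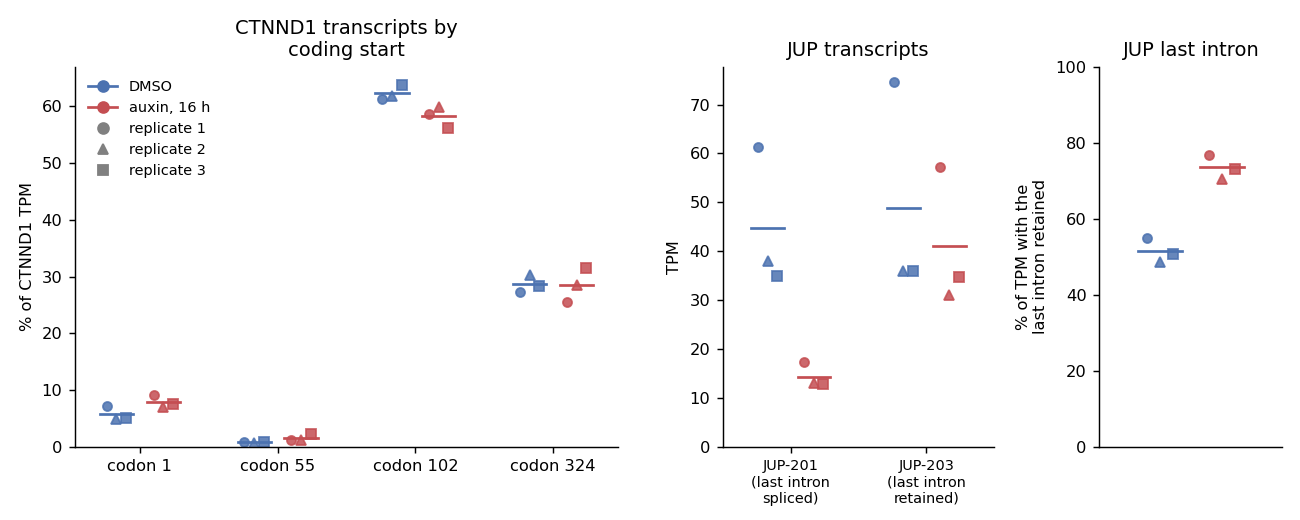
Left, percent of CTNND1 TPM in transcripts of each coding start; middle, TPM of the 2 main JUP transcripts; right, percent of TPM that retains the last JUP intron; shapes are replicates, colours groups and short lines means. The codon 102 class is lower and JUP-201 is lower in all 3 auxin libraries, and intron retention is at 70.4% or more in auxin against 54.9% or less in DMSO.

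In the other genes the leading transcript was not called. CDH1-201 held 53.0 ± 1.6% of CDH1 TPM in DMSO and 53.3 ± 3.3% in auxin, EPCAM-201 held 57.7 ± 3.2% and 56.8 ± 3.1%, and VIM-201 held 84.2 ± 1.6% and 83.9 ± 1.1%. ZEB1-201 was at 40.1 ± 7.4% and 40.0 ± 6.9% and CTNNA1-201 at 70.4 ± 4.8% and 71.9 ± 6.6%. The limma adjusted p of these ranged from 0.857 to 0.999, and SNAI1 has a single annotated transcript. With the replicate block 2 overlapping ZEB1 exons passed the threshold (limma adjusted p 0.027 each), which were at 83.5 to 100% inclusion in DMSO and 93.2 to 100% in auxin.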

How the data were processed

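Total RNA, depleted of ribosomal RNA, was sequenced as stranded paired-end libraries, per the labels' protocols. Per the file headers, the authors deposited an expected count, that is reads assigned in fractions where they fit several transcripts, and a TPM for each gene and transcript; posterior standard deviations were also given. Per the submitters' processing notes, bcl2fastq 2.20, STAR and DESeq2 were used and the build was GRCh38/hg38; the counting program, annotation and use of strand are not given in the sources used here. Gene identifiers were those of GENCODE 29, which gave symbols, coordinates and transcript structures.

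Expected counts were rounded and tested with edgeR 4.0.16 in R 4.3.3 (filterByExpr, TMM, glmQLFit, glmQLFTest) over 19725 genes; standard errors derive from the F statistic. Transcript shares used limma 3.58.1 on log2 ratios of TMM-scaled counts (pseudocount 1; mean of at least 10 counts; mean share 2 to 98%), exon inclusion on log2 ratios of TPM (pseudocount 0.1; mean of at least 1 TPM; mean inclusion 2 to 98%). Scripts were tested on simulated data. The depth was 234038000 to 625895000 counts per library, and the non-human rows, 2.55 to 11.1 CPM, were left out. No 2 libraries of a group differed by as little as counting noise (chi-square per degree of freedom at least 36.8).

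The members and gene lists were chosen with earlier results of these data known. Named list genes are the 3 largest called changes in each direction with a mean CPM of at least 1, plus CTNNB1, CDH2, ZEB2, ESRP1 and ESRP2, except for 2 genes that are not reported here; named transcripts are those of CD44 and CTNND1 with a share of 5% or more and the leading one of other members, and JUP-201, CTNND1-224 and CTNND1-237 were added after their values were seen. For CD44, the planned reference with the fewest coding exons, CD44-224, put 100% of complete transcripts in the variable class in both groups, so CD44-201 was used, a choice made after seeing the data, as were the GC comparisons. Same-numbered libraries deviated together (correlation across genes 0.62, 0.24 and 0.25). The main fits did not pair the samples, and fits with the replicate number as a block are given beside them. DMSO replicate 3 and auxin replicate 2 also correlated, at 0.29. The check thus sets replicate 1 apart but does not tell pairs 2 and 3 apart. Alternatives covered scaling, test, filter, TPM, the block, GC offsets and left-out libraries.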

Additional observations from a re-analysis of the deposited data

How the results depend on the processing

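Of 480 recomputed values for the 10 genes, the gene lists and the counts of calls, 384 were classed as unchanged. A fold change was so classed if it kept its direction and its side of the threshold. A count only had to stay within a set ratio of the main count, so that 6534 higher genes against 5010 passed as unchanged. For the changed values below, the cause was not tested. The GC-corrected offsets and the CD44-201 reference were chosen after seeing the data. On log2(TPM + 1) and then log2(TPM + 0.1), limma called 970 and 1017 genes higher and 2966 and 3223 lower. The log2 fold changes on these 2 scales, none of them called, were 0.20 and 0.20 for CDH1, 0.15 and 0.15 for EPCAM, 0.41 and 0.64 for VIM, 0.43 and 0.58 for ZEB1, 0.19 and 0.22 for SNAI1, 0.14 and 0.15 for CTNNA1 and -0.76 and -0.77 for JUP; CTNND1 turned to -0.0192 and -0.0194. With GC-corrected offsets the log2 fold change was 0.23 for CDH1, 0.13 for EPCAM and 0.17 for CTNNA1, none called; it was -0.0598 without and -0.0595 with the replicate block for CTNND1 and likewise 0.159 and 0.16 for JUP and 0.0452 and 0.0459 for CTBP1. Upper-quartile factors gave 0.24 for CTNND1 and 0.32 for CD44, both called, and -0.44 for JUP, not called; library size alone gave 0.28 for SNAI1, 0.47 for CDX2 and 0.16 for TCF12, none called. The replicate block gave 0.12 for CTNND1 and 0.20 for CD44, both called, as was CD44 without both replicate 1 libraries (0.20).

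Higher genes among adherens junction and desmosome genes numbered 0 on both TPM scales, and those among the partners 1 and 2. EMT factors had 5 higher with upper-quartile factors, the block or GC offsets, 7 with GC offsets and the block, and 0 higher and 2 or 3 lower on the TPM scales. Epithelial factors had 5 higher with the block, GC offsets or no replicate 1 libraries, 7 with GC offsets and the block, and 0 higher and 2 or 3 lower on the TPM scales. Mesenchymal genes had 8 higher with upper-quartile factors, 7 with DESeq2, GC offsets or no replicate 1 libraries, and 9 with the block, with or without GC offsets. Splicing regulators had 8 higher with upper-quartile factors, 7 with the block, 5 without replicate 1 libraries, 4 with GC offsets and the block, 2 with library size alone, DESeq2, no filter or GC offsets, and 6 lower on log2(TPM + 1). With the block, calls changed for CD44, CTNND1, CDH2, COL1A1, CD44-209, the longer first coding exon of CTNND1, 2 ZEB1 exons and these list counts. No other call of a member, list gene, transcript or exon given here changed in that paired fit.

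Leaving out 1 library at a time or both replicate 1 libraries, log2 fold changes ranged from 0.22 to 0.34 for EPCAM, 0.14 to 0.27 for CD44, 0.32 to 0.44 for SNAI1 and -0.70 to -0.41 for JUP, higher mesenchymal genes from 4 to 7 and higher splicing regulators from 1 to 5. Transcripts with a changed share ranged from 1722 to 2768 higher and 1219 to 2297 lower, and exons with higher inclusion from 565 to 1068. Log ratios of TPM called 4979 transcripts higher. A 5 times higher minimum called 718 exons higher and 1216 lower, and protein-coding transcripts alone 650 and 1299. Uncalled shares with a log2 odds change near 0 crossed it when libraries were left out: from -0.16 to 0.054 for CTNND1-214, -0.20 to 0.25 for CTNND1-225, -0.23 to 0.021 for CD44-201, -0.0097 to 0.085 for CD44-206, -0.078 to 0.32 for CD44-218 and -0.069 to 0.28 for CD44-236. CTNND1-225 was also at -3.4e-05 with a larger pseudocount, -0.082 without replicate 1 libraries and -0.016 from TPM, where CD44-206 was at -0.0028. Inclusion did likewise for CD44 v7 with the other start (-0.021 to 0.15), v8 (-0.048 to 0.14), v9 (-0.15 to 0.22), v10 (-0.12 to 0.20) and the exon at 35221654 (-0.43 to 0.014), and for the CTNND1 exons at 57795577 (-0.089 to 0.11, and -0.047 without replicate 1 libraries) and 57796457 (-0.10 to 0.082). Depth is thinnest for SNAI2, at 150 to 1133 counts in a library.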
